A study of Homo sapiens with 12 samples.

Results

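The 10 genes described here encode the enzymes that write, keep and remove methyl groups on DNA and the core of Polycomb repressive complex 2 (PRC2). They were taken by symbol from the count tables of a leukemia knockdown study, and all 10 were found among the 60648 genes listed: DNMT1, UHRF1, DNMT3A, DNMT3B, TET1, TET2, TET3, EZH2, EED and SUZ12. The study sequenced polyadenylated RNA from MOLM13 and OCIAML5, a pair of human acute myeloid leukemia cell lines. Lentiviral short hairpins targeted PSPC1, which encodes a paraspeckle protein, or PU.1, a transcription factor of myeloid cells whose gene is SPI1. The 6 groups were PSPC1-knockdown MOLM13, control MOLM13, PSPC1-knockdown OCIAML5, control OCIAML5, PU.1-knockdown OCIAML5 and a second set of control OCIAML5 that belonged to the PU.1 experiment, with 2 libraries each. Control cells carried a control hairpin, and per the labels' protocols infected cells were selected with puromycin or sorted for GFP. OCIAML5 grew with GM-CSF, and MOLM13 is not stated to have received it. The sources used here give neither the number of hairpins per knockdown nor the time from infection to RNA. Nothing in the labels says that the libraries within a group are separate cultures. The p-values therefore measure the spread between the libraries at hand, which may be technical.

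DNMT1 copies methylation onto the new strand after DNA replication, and UHRF1 brings it there by binding hemimethylated DNA. DNMT3A and DNMT3B place new methyl groups, and the TET enzymes oxidise methylcytosine, the first step of its removal. In PRC2, EZH2 methylates lysine 27 of histone H3, while EED and SUZ12 are the subunits without which the enzyme is inactive. Several of these genes are recurrently mutated or deregulated in acute myeloid leukemia, TET2, DNMT3A and EZH2 among them.

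Total counts ran from 15.4 M to 39.7 M per library. Levels are given as CPM, counts divided by the library's total in M after scaling of the totals within a table, and are relative to all RNA measured. Lower levels can reflect fewer cells that express a gene or less of its RNA per cell, which bulk RNA cannot tell apart. The targeted genes were checked first. PSPC1 stood at 27.1 and 27.7 CPM in PSPC1-knockdown MOLM13, against 130 and 135 CPM in control MOLM13, and at 18.9 and 19.2 CPM in PSPC1-knockdown OCIAML5, against 99.1 and 98.8 CPM in control OCIAML5. SPI1 stood at 47.5 and 46.2 CPM in PU.1-knockdown OCIAML5, against 227 and 204 CPM in its controls. The myeloid marker CD33 was present in all 12 libraries, between 74.5 and 131.8 CPM, while ANPEP, another myeloid surface marker, did not exceed 0.478 CPM. Of 7 measured markers of these lines, 2 fell and 2 rose in PSPC1-knockdown MOLM13, where 29.5% of all genes tested fell and 27.6% rose. In PSPC1-knockdown OCIAML5, 3 fell and 2 rose, against 28.4% and 27.5% of all genes. With PU.1 knockdown 6 fell, against 30.9% of all genes. SPI1 is 1 of the 7 markers, so its fall with PU.1 knockdown, counted among the 6, is that of the targeted gene. In PSPC1-knockdown MOLM13 it was among those that rose (0.44). MPO, a granule enzyme of myeloid cells, changed by -3.51, -1.90 and -0.63 on the log2 scale in that order, the receptor gene FLT3 by -0.94, -3.22 and -1.94, and CD33 fell with PU.1 knockdown (-0.70). The part of these markers' changes in the results below was not tested. Of 12 markers of other cell types, the erythroid HBG1 and the B cell marker MS4A1 were at 0 in every library, and their sum was 85.2 to 108 CPM in MOLM13 and at most 13.96 CPM in OCIAML5. In MOLM13 that sum was nearly all PECAM1, an adhesion molecule that some blood cells carry.

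The promoters of 4 of the genes are printed, and all 4 hold the same kind of motif. The first 3 genes fell in all 3 knockdowns, and the fourth, whose counts are uncertain as given below, did not. The windows, from RefSeq on GRCh38.p14, run from 250 bases before the transcription start to 50 bases after it, on the strand of the gene. Capitals mark an exact match on either strand to TTTCCCGC, TTTCGCGC, TTTGCCGC or TTTGGCGC, forms of the site bound by E2F factors, which drive S phase genes. They are DNMT1 (chr19:10194904-10195203, minus strand), UHRF1 (chr19:4909251-4909550, plus strand), EZH2 (chr7:148884242-148884541, minus strand) and SUZ12 (chr17:31936757-31937056, plus strand).
DNMT1: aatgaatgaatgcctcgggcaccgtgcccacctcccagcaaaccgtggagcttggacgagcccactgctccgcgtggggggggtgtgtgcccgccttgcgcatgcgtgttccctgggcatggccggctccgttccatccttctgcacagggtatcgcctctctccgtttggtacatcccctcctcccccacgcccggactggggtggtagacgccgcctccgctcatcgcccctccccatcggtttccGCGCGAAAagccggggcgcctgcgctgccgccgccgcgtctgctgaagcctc
UHRF1: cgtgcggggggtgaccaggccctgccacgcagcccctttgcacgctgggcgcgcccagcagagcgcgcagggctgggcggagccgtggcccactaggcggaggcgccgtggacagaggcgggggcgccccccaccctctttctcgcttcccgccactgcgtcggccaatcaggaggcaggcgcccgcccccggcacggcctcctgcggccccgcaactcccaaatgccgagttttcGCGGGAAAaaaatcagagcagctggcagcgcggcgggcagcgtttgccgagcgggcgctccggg
EZH2: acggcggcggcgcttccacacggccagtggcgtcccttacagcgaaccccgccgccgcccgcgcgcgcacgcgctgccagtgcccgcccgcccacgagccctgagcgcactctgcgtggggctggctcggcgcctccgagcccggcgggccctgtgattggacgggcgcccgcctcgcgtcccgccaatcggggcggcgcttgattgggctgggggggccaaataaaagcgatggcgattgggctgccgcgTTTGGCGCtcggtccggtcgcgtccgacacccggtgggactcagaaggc
SUZ12: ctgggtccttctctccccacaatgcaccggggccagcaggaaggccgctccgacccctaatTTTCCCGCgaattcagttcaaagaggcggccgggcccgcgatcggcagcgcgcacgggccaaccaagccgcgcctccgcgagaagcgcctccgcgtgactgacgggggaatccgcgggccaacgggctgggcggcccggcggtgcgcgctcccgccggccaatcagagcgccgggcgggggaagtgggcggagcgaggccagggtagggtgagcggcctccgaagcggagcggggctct

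The first base of the match lay at position -2 from the start in DNMT1, -14 in UHRF1, 2 in EZH2 and -189 in SUZ12. A second annotated start of UHRF1 held another match, at -160. The third start of UHRF1 and the second of EZH2 held none. Of the 22 windows given for the 10 genes, 5 held a match, compared with 3.31% of all 35116 windows and 4.9% of the windows of genes tested. Counted by gene, 4 of 10 held at least 1 match, compared with 6.66% of the 10764 genes tested that have a window, where genes with several starts have more windows in which a match can occur. SUZ12 held a match and was called lower in PSPC1-knockdown MOLM13 alone. Its counts are uncertain, as they may share reads with a pseudogene described below. TET3 was lower in all 3 knockdowns and held no match in its 2 windows. Its calls in OCIAML5 depended on control replicate 1 or on the scaling, as given below. The NF-Y box CCAAT was present for 7 of the 10 genes and for 42.9% of the genes tested that have a window. GAGGAAGT, a PU.1-like site of the ETS family, was in none of the 22 windows and in 2.59% of all windows. A match is a run of letters and does not show binding, and no match says only that these letters are not in the window. CpG dinucleotides numbered 30 in the DNMT1 window and 46 in the EZH2 window printed above, but 3 in the window of DNMT3B and 6 to 11 in those of TET1, against a median of 14 over all windows.

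**Figure D1:**
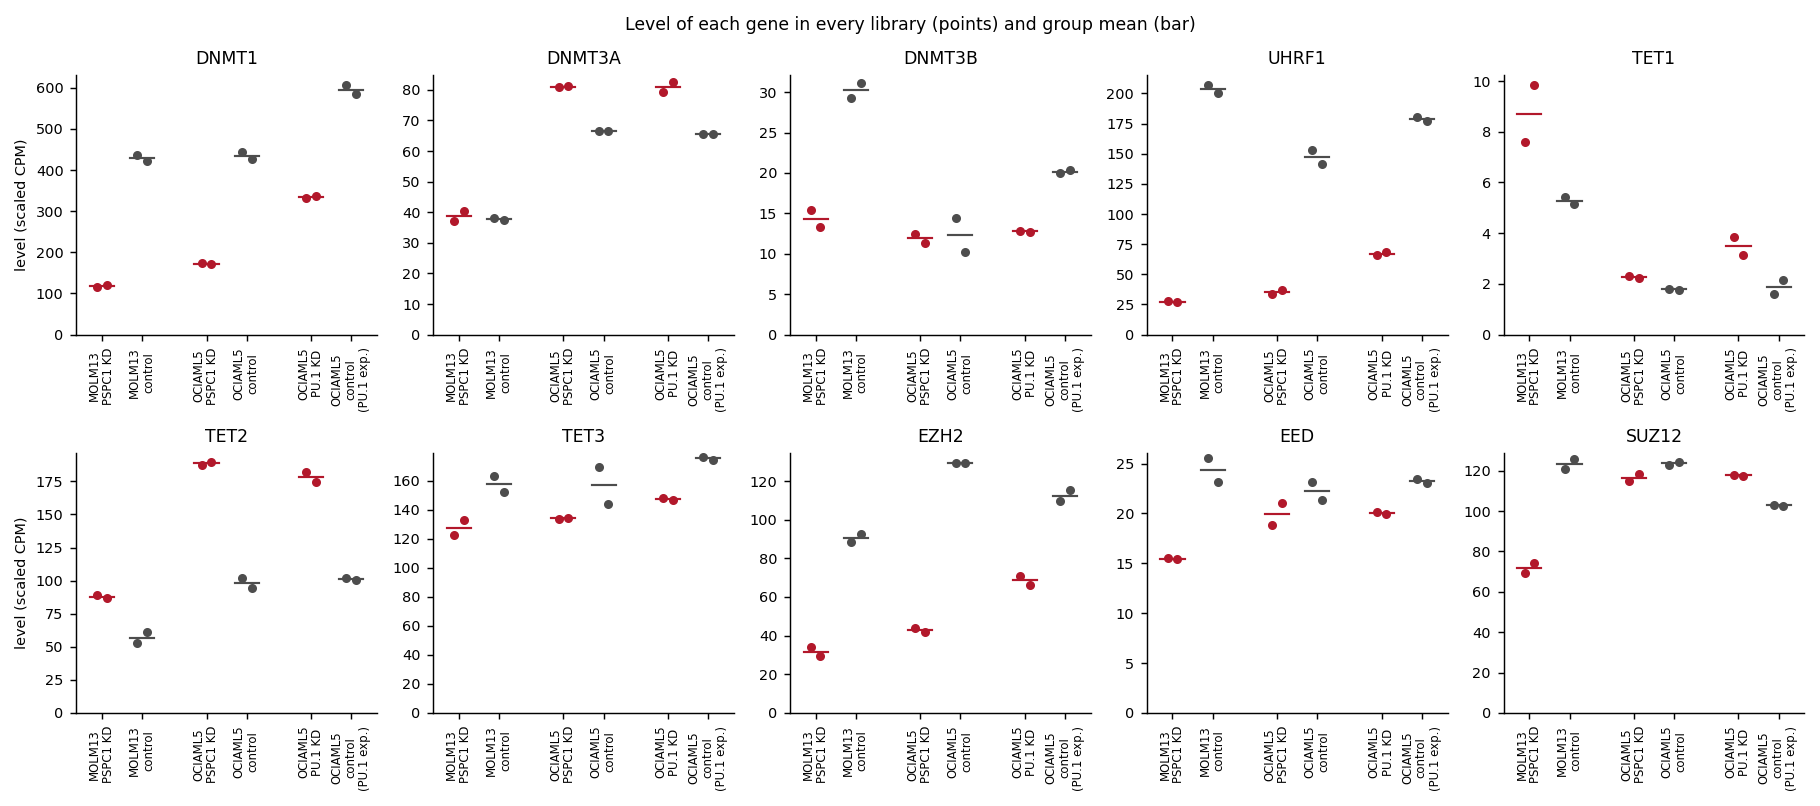
Level of each of the 10 genes (vertical axes, scaled CPM from 0) in every library; points are libraries and bars the mean of the 2 libraries of a group, knockdown in red and control in grey. DNMT1, UHRF1 and EZH2 lie far below their controls in all 3 pairs, TET2 lies above them in all 3, and the control levels of TET1 and DNMT3B are higher in MOLM13 than in OCIAML5.

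The maintenance pair, DNMT1 and UHRF1, fell in all 3 knockdowns. UHRF1 had the largest log2 fall of the 10 genes each time, and DNMT1 came next except in PSPC1-knockdown OCIAML5, where EZH2 did. DNMT1 (GRCh38 chromosome 19, 10133345 to 10231286, minus strand) stood at 116 and 121 CPM in PSPC1-knockdown MOLM13, against 437 and 421 CPM in control MOLM13. Its log2 fold change there was -1.86 ± 0.047 (SE, as for all log2 fold changes here; adjusted p = 3.1e-35). PSPC1-knockdown OCIAML5 had 175 and 171 CPM of it, against 443 and 427 CPM in controls (-1.33 ± 0.045; adjusted p = 4.9e-30). With PU.1 knockdown it stood at 332 and 338 CPM, against 608 and 584 CPM in controls (-0.83 ± 0.039; adjusted p = 2.1e-29). Knockdown and control libraries did not overlap in any pair, and the level left was 0.276, 0.397 and 0.562 of the control level in that order. DNMT1 shares 83 exon bases with S1PR2 on the same strand, a receptor gene with 2 to 79 counts per library.

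UHRF1 (chromosome 19, 4903080 to 4962154, plus strand) stood at 27.8 and 27.0 CPM in PSPC1-knockdown MOLM13, against 207 and 200 CPM in control MOLM13 (log2 fold change -2.89 ± 0.067; adjusted p = 1.3e-36). PSPC1-knockdown OCIAML5 had 34.1 and 36.7 CPM of UHRF1, against 153 and 141 CPM in controls (-2.06 ± 0.064; adjusted p = 1.6e-31). PU.1 knockdown left 65.7 and 68.2 CPM, against 180 and 177 CPM in controls (-1.42 ± 0.050; adjusted p = 1.6e-36). Per kilobase of exon, the ratio of UHRF1 to DNMT1 was 0.457 and 0.426 in PSPC1-knockdown MOLM13, against 0.900 and 0.904 in control MOLM13. It was 0.371 and 0.409, against 0.659 and 0.629, in the PSPC1 pair of OCIAML5, and 0.377 and 0.384, against 0.565 and 0.576, in the PU.1 pair. The ratio was thus lower in knockdown libraries of every pair, and the 6 knockdown libraries lay between 0.371 and 0.457 while controls were spread from 0.565 to 0.904.

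EZH2, the catalytic subunit of PRC2 (chromosome 7, 148807383 to 148884321, minus strand), was the third gene with a large fall in all 3 knockdowns. It stood at 34.1 and 29.3 CPM in PSPC1-knockdown MOLM13, against 88.2 and 92.7 CPM in control MOLM13, a fall of 1.52 ± 0.074 on the log2 scale (adjusted p = 1.5e-23). In OCIAML5, PSPC1 knockdown gave 43.9 and 42.1 CPM, against 129.6 and 129.3 CPM in controls (-1.59 ± 0.068; adjusted p = 9.9e-26). PU.1 knockdown gave 71.1 and 66.4 CPM, against 109.7 and 115 CPM in controls (-0.71 ± 0.054; adjusted p = 4.1e-19). The libraries of each pair were separate, and the PSPC1 effect on EZH2 did not pass the test for a difference between the lines given below, unlike that on DNMT1 and UHRF1.

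These falls stood beside a fall of cell cycle genes. All 20 of 20 S phase and proliferation markers fell in each knockdown, and none was at 0. MCM2, PCNA and MKI67 are among them, a subunit of the replicative helicase, the replication clamp and a marker of dividing cells. Their summed level was 837 and 847 CPM in PSPC1-knockdown MOLM13, against 4826 and 4877 CPM in control MOLM13, a log2 ratio of means of -2.53. It was 1520 and 1540 CPM, against 5008 and 5005 CPM, in the PSPC1 pair of OCIAML5 (-1.71), and 2795 and 2753 CPM, against 5646 and 5715 CPM, in the PU.1 pair (-1.03). The log2 falls of UHRF1 were larger than that of the sum in all 3 pairs, and those of DNMT1 and EZH2 were smaller. The part of cell cycle position in the change of any gene here was not tested.

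Beyond maintenance, the set split. Of the 10 genes, 7 fell and 2 rose in PSPC1-knockdown MOLM13, where 57% of all genes tested were called at an adjusted p of 0.05 (27.6% rose and 29.5% fell). In PSPC1-knockdown OCIAML5, 4 fell and 2 rose, with 56% of all genes passing, 27.5% higher and 28.4% lower. PU.1 knockdown lowered 6 and raised 4, with 60.4% of all genes passing, 29.6% higher and 30.9% lower. With most genes called, a count of called members is read against those shares, and the sizes and directions of single genes are given instead. Their median log2 fold changes were -0.72, -0.13 and -0.23, while those of all genes tested were 0.006, 0.017 and 0.020. Both knockdown libraries lay beyond both controls for 9, 9 and 10 of the 10 genes, as they did for 75.6%, 75.8% and 78.7% of all genes. DNMT1, UHRF1, EZH2 and TET3 were lower in all 3 knockdowns, and TET2 was higher in all 3.

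**Figure D2:**
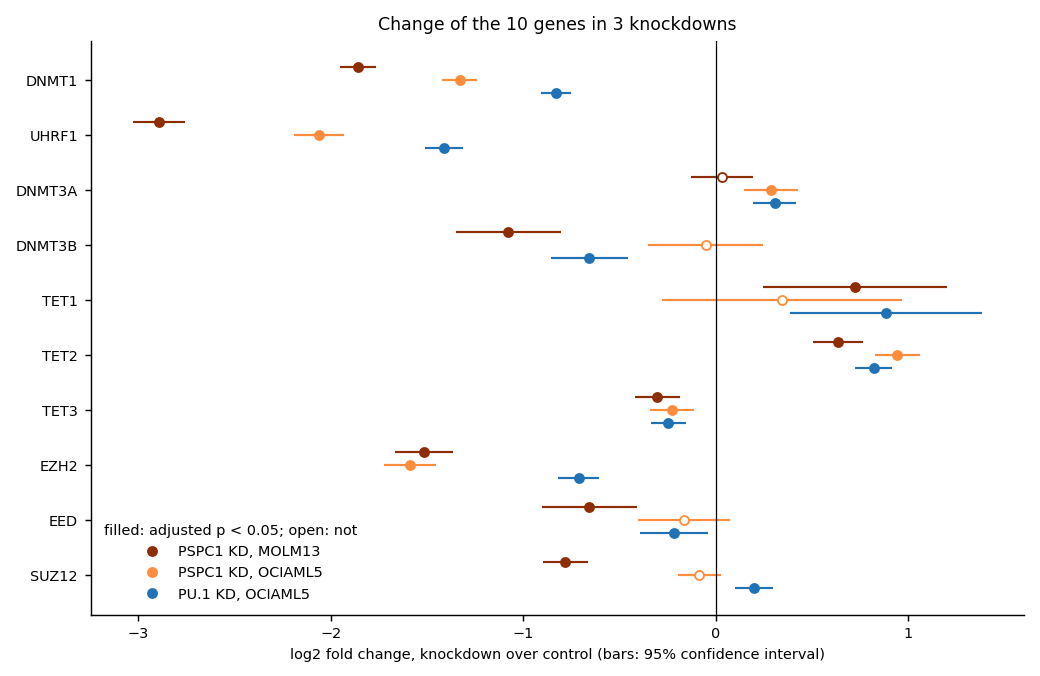
Log2 fold change of each gene, knockdown over control (horizontal axis), with 95% confidence intervals as bars, in PSPC1-knockdown MOLM13, PSPC1-knockdown OCIAML5 and PU.1-knockdown OCIAML5; filled points passed an adjusted p of 0.05. UHRF1 reaches -2.89, TET2 is right of 0 in all 3 knockdowns, and SUZ12 runs from -0.78 to 0.20.

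The de novo methyltransferases did not move together. DNMT3B (chromosome 20, 32762385 to 32809356, plus strand) stood at 15.4 and 13.3 CPM in PSPC1-knockdown MOLM13, against 29.3 and 31.1 CPM in control MOLM13, which is -1.08 ± 0.14 on the log2 scale (adjusted p = 2.1e-09). It also fell with PU.1 knockdown, to 12.8 and 12.7 CPM, against 20.0 and 20.3 CPM in controls (-0.66 ± 0.10; adjusted p = 4.1e-08). DNMT3B levels in PSPC1-knockdown OCIAML5 were 12.5 and 11.3 CPM, against 14.5 and 10.2 CPM in controls (adjusted p = 0.793, 95% interval of the log2 fold change -0.35 to 0.24). Those controls differed from each other by more than the groups did, and without control replicate 1 the log2 fold change was 0.23, without control replicate 2 it was -0.28.

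DNMT3A (chromosome 2, 25227855 to 25342590, minus strand) did not fall in any knockdown. It rose in OCIAML5, to 80.8 and 81.3 CPM with PSPC1 knockdown, against 66.5 and 66.5 CPM in controls (0.28 ± 0.070; adjusted p = 0.00049). With PU.1 knockdown it stood at 79.3 and 82.7 CPM, against 65.5 and 65.7 CPM in controls (0.31 ± 0.056; adjusted p = 2.7e-06). PSPC1-knockdown MOLM13 had 37.0 and 40.3 CPM of DNMT3A, against 38.1 and 37.5 CPM in control MOLM13 (adjusted p = 0.77, 95% interval -0.13 to 0.19). The ratio of DNMT3A to DNMT3B per kilobase was 0.927 and 1.17 in PSPC1-knockdown MOLM13, against 0.500 and 0.464 in control MOLM13, and 2.39 and 2.50 in PU.1-knockdown OCIAML5, against 1.26 and 1.24 in its controls. In the PSPC1 pair of OCIAML5 it was 2.49 and 2.76, against 1.77 and 2.52, so that these groups overlapped.

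Among the dioxygenases, TET2 was the gene that rose throughout. TET2 (chromosome 4, 105145875 to 105279816, plus strand) stood at 88.9 and 86.6 CPM in PSPC1-knockdown MOLM13, against 52.6 and 61.0 CPM in control MOLM13 (log2 fold change 0.63 ± 0.065; adjusted p = 6.0e-12). TET2 reached 187 and 190 CPM in PSPC1-knockdown OCIAML5, against 102 and 94.1 CPM in controls (0.94 ± 0.059; adjusted p = 2.1e-19). PU.1 knockdown gave 182 and 175 CPM, against 101.6 and 100.5 CPM in controls (0.82 ± 0.047; adjusted p = 9.5e-25). No knockdown library of TET2 fell within the range of its controls.

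TET3 (chromosome 2, 73986404 to 74108176, plus strand) fell a little in each knockdown. It stood at 122 and 133 CPM in PSPC1-knockdown MOLM13, against 163 and 152 CPM in control MOLM13 (-0.30 ± 0.059; adjusted p = 1.5e-05). In OCIAML5 the values were 134.0 and 134.1 CPM with PSPC1 knockdown, against 169.7 and 144 CPM in controls (-0.23 ± 0.058; adjusted p = 0.00067). With PU.1 knockdown they were 148 and 147 CPM, against 177 and 174 CPM in controls (-0.25 ± 0.045; adjusted p = 2.5e-06). The call in PSPC1-knockdown OCIAML5 rested on control replicate 1: without it the log2 fold change was -0.11 (adjusted p = 0.134), and without control replicate 2 it was -0.35. Scaling by library size alone put the PU.1 value at -0.10 (adjusted p = 0.0621).

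TET1 (chromosome 10, 68560656 to 68694482, plus strand) was the lowest of the set, with 28 to 168 counts per library. It stood at 7.58 and 9.85 CPM in PSPC1-knockdown MOLM13, against 5.43 and 5.14 CPM in control MOLM13 (0.72 ± 0.24; adjusted p = 0.00817). That call was lost without knockdown replicate 2, with a log2 fold change of 0.51 (adjusted p = 0.176). With PU.1 knockdown it rose to 3.84 and 3.13 CPM, against 1.58 and 2.15 CPM in controls (0.88 ± 0.25; adjusted p = 0.00166). PSPC1-knockdown OCIAML5 had 2.30 and 2.22 CPM, against 1.79 and 1.77 CPM in controls (0.34 ± 0.31; adjusted p = 0.363), and at this depth the 95% interval of the log2 fold change ran from -0.28 to 0.97.

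The non-catalytic PRC2 subunits fell with EZH2 in PSPC1-knockdown MOLM13 and did not pass the test in PSPC1-knockdown OCIAML5. SUZ12 (chromosome 17, 31937018 to 32001045, plus strand) stood at 69.3 and 74.1 CPM in PSPC1-knockdown MOLM13, against 121 and 126 CPM in control MOLM13, a fall of 0.78 ± 0.059 on the log2 scale (adjusted p = 1.8e-16). PSPC1-knockdown OCIAML5 had 115 and 118 CPM of SUZ12, against 123 and 124 CPM in controls (-0.09 ± 0.056; adjusted p = 0.191, 95% interval -0.20 to 0.03). With PU.1 knockdown it rose, to 117.9 and 117.5 CPM, against 103.0 and 102.6 CPM in controls (0.20 ± 0.049; adjusted p = 0.00046), and scaling by library size alone made this 0.35. A near-copy, the pseudogene SUZ12P1 on the same chromosome, may share reads with SUZ12 in the authors' counting, so both are uncertain. SUZ12P1 stood at 99.3 and 98.6 CPM in PSPC1-knockdown MOLM13, against 53.7 and 57.9 CPM in control MOLM13, a rise of 0.83 on the log2 scale where SUZ12 fell. It moved opposite to SUZ12 in PU.1-knockdown OCIAML5 too, with 26.8 and 25.8 CPM, against 32.9 and 33.8 CPM in controls (-0.35 ± 0.078; adjusted p = 9.3e-05).

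EED (chromosome 11, 86244544 to 86278813, plus strand) stood at 15.5 and 15.5 CPM in PSPC1-knockdown MOLM13, against 25.6 and 23.1 CPM in control MOLM13 (-0.66 ± 0.12; adjusted p = 8.9e-06). PSPC1-knockdown OCIAML5 had 18.8 and 21.0 CPM of EED, against 23.1 and 21.4 CPM in controls (-0.17 ± 0.12; adjusted p = 0.235, 95% interval -0.41 to 0.07). With PU.1 knockdown the values were 20.2 and 19.9 CPM, against 23.5 and 23.1 CPM in controls (-0.22 ± 0.089; adjusted p = 0.0309). That small fall depended on the setting: its adjusted p was 0.0933 with DESeq2 and 0.559 when scaled by library size alone, and it reached 0.122 when 1 library was left out.

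**Figure D3:**
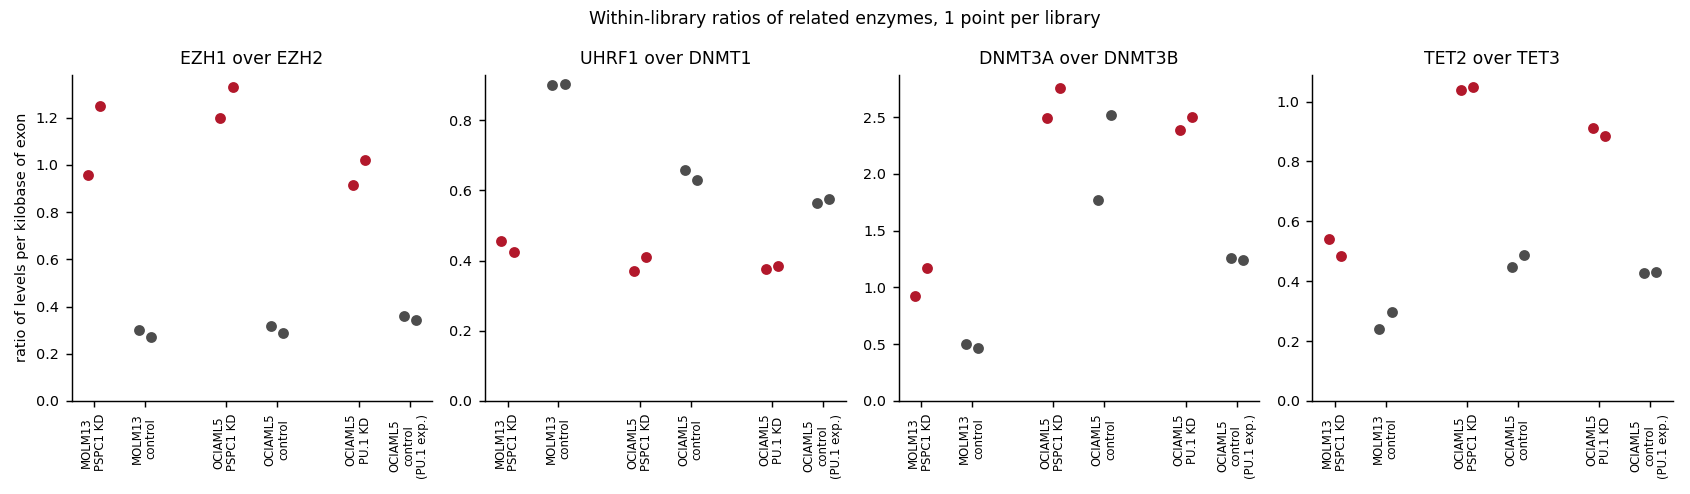
Ratio of levels per kilobase of merged exons (vertical axes from 0, no unit) of EZH1 to EZH2, UHRF1 to DNMT1, DNMT3A to DNMT3B and TET2 to TET3, 1 point per library, knockdown in red and control in grey. The 6 knockdown libraries lie between 0.914 and 1.33 for EZH1 to EZH2, and the 6 control libraries between 0.269 and 0.359.

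The ratios of EZH1 to EZH2 and of TET2 to TET3 were higher in all knockdown libraries of a pair than in its controls. EZH1, the other H3 lysine 27 methyltransferase of PRC2 and the one typical of non-dividing cells, rose where EZH2 fell. EZH1 stood at 50.4 and 56.7 CPM in PSPC1-knockdown MOLM13, against 41.0 and 38.5 CPM in control MOLM13 (0.43 ± 0.080; adjusted p = 8.0e-06). It rose by 0.47 ± 0.073 with PSPC1 knockdown in OCIAML5 and by 0.75 ± 0.055 with PU.1 knockdown. The ratio of EZH1 to EZH2 per kilobase of exon was 0.956 and 1.25 in PSPC1-knockdown MOLM13, against 0.301 and 0.269 in control MOLM13. It was 1.2 and 1.33, against 0.318 and 0.287, in the PSPC1 pair of OCIAML5, and 0.914 and 1.02, against 0.359 and 0.343, in the PU.1 pair. Every control library thus held more EZH2 than EZH1 RNA per kilobase. In replicate 1 of PSPC1-knockdown MOLM13 and of PU.1-knockdown OCIAML5, which of them was higher depended on the length used. The other knockdown libraries held more EZH1 with either length. With the longest transcript the ratio was 1.11 to 1.62 in the 6 knockdown libraries and 0.327 to 0.437 in the 6 controls. TET2 moved likewise against TET3. Their ratio was 0.541 and 0.485 in PSPC1-knockdown MOLM13, against 0.240 and 0.298 in control MOLM13, 1.04 and 1.05, against 0.448 and 0.487, in the PSPC1 pair of OCIAML5, and 0.913 and 0.884, against 0.429 and 0.430, in the PU.1 pair. The groups of all 3 pairs were separate for both ratios, which were given no test.

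Levels of different genes are compared as RPKM, which here is CPM divided by the length of the gene's merged exons in kilobases, taken from GENCODE 29 on GRCh38. In control MOLM13 the order began with DNMT1 at 43.8 ± 1.2 (SD, n = 2) and UHRF1 at 39.5 ± 0.89, followed by EZH2 at 20.0 ± 0.70, SUZ12 at 18.9 ± 0.57 and TET3 at 12.9 ± 0.63. DNMT3B stood at 6.53 ± 0.28, and EED, TET2 and DNMT3A followed at 3.47 ± 0.25, 3.45 ± 0.36 and 3.15 ± 0.03 RPKM. EED and TET2 did not differ beyond their spread, and EZH2 and SUZ12 differed by less than the sum of their SDs. TET1 came last in all 6 groups, from 0.192 RPKM in control OCIAML5 to 0.938 RPKM in PSPC1-knockdown MOLM13. In control OCIAML5, EZH2 and UHRF1 were level at 28.6 RPKM behind DNMT1 at 44.4 RPKM. In PSPC1-knockdown OCIAML5, SUZ12 at 17.8 ± 0.34 RPKM and DNMT1 at 17.6 ± 0.30 RPKM led and did not differ beyond their spread, while UHRF1 had dropped to sixth at 6.88 ± 0.36 RPKM. The order depends on the length used: with the longest transcript, DNMT1 was first in every group. In control MOLM13 that length put SUZ12 (27.5 RPKM) above EZH2 (24.9 RPKM). It also put EED (8.8 RPKM) above DNMT3B (6.97 RPKM) and TET2 (5.59 RPKM).

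The PSPC1 effect differed between the lines for 6 of the 10 genes, where 30.5% of all genes passed the same test, 12.5% higher and 18% lower in MOLM13. All 6 lay lower in MOLM13, which for TET2 means a smaller rise. As OCIAML5 alone is stated to have grown with GM-CSF, line and medium cannot be told apart. The log2 fold change in MOLM13 minus that in OCIAML5 was -1.02 ± 0.20 for DNMT3B (adjusted p = 6.2e-05), -0.83 ± 0.095 for UHRF1 (adjusted p = 5.7e-10) and -0.70 ± 0.081 for SUZ12 (adjusted p = 9.9e-10). It was -0.53 ± 0.064 for DNMT1 (adjusted p = 3.4e-09), -0.49 ± 0.17 for EED (adjusted p = 0.024) and -0.31 ± 0.088 for TET2 (adjusted p = 0.00503). The near-copy SUZ12P1, which may share reads with SUZ12, differed the other way (0.62 ± 0.11; adjusted p = 1.3e-05), so the SUZ12 difference is uncertain. EZH2 was not called, with a difference of 0.07 and a 95% interval from -0.13 to 0.28. The call for EED was lost in 5 fits that left out 1 library (adjusted p up to 0.118), and that for TET2 was lost without MOLM13 control replicate 2 (-0.21; adjusted p = 0.104). Of the S phase markers, 18 of 20 also differed, all lower in MOLM13, with a median of -0.92, and their part in these differences was not tested.

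In OCIAML5 the effects of PU.1 and PSPC1 knockdown were set against each other, each relative to its own controls, and 5 of the 10 genes differed, where 45.6% of all genes passed, 22.8% higher and 22.9% lower. The PU.1 effect minus the PSPC1 effect was 0.89 ± 0.084 for EZH2 (adjusted p = 1.9e-12), 0.66 ± 0.083 for UHRF1 (adjusted p = 4.0e-09) and 0.52 ± 0.061 for DNMT1 (adjusted p = 1.2e-09). These genes thus fell less in the PU.1 pair. Target and experiment changed together, so they cannot be told apart in this contrast. SUZ12 differed by 0.30 ± 0.073 (adjusted p = 0.00071), having risen with PU.1 knockdown and not been called with PSPC1 knockdown. DNMT3B differed by -0.59 ± 0.18 (adjusted p = 0.00728), a call that was lost without replicate 2 of the PSPC1 experiment's controls (-0.36; adjusted p = 0.118). TET2 and DNMT3A were not called, with 95% intervals of -0.25 to 0.04 and -0.13 to 0.21. PSPC1 itself was lower with PU.1 knockdown, at 59.8 and 58.2 CPM, against 106 and 113 CPM in controls, and its part in these changes was not tested. Of the 20 S phase markers, 16 differed toward a higher value with PU.1 knockdown and 2 toward a lower one, and their part was not tested either.

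The lines differed before any knockdown, in the controls of the PSPC1 experiment. OCIAML5 grew with GM-CSF and MOLM13 is not stated to have, so line and medium cannot be told apart. In controls, 6 of the 10 genes differed between MOLM13 and OCIAML5, where 60.6% of all genes passed, 30% higher and 30.7% lower in MOLM13. Of the 6 genes, 3 were higher and 3 lower in MOLM13. TET1 was higher in MOLM13, at 5.29 ± 0.21 CPM, against 1.78 ± 0.016 CPM in OCIAML5 (SD, n = 2 each), a log2 difference of 1.57 ± 0.28 (SE; adjusted p = 4.5e-06). DNMT3B was 1.28 ± 0.14 higher (adjusted p = 1.8e-11) and UHRF1 0.47 ± 0.055 higher on the log2 scale (adjusted p = 2.7e-10). DNMT3A was lower in MOLM13, at 37.8 ± 0.40 CPM, against 66.5 ± 0.0086 CPM in OCIAML5 (-0.81 ± 0.075; adjusted p = 1.6e-13). TET2 was lower by a similar amount (-0.80 ± 0.064; adjusted p = 1.8e-15), as was EZH2 by less (-0.52 ± 0.064; adjusted p = 8.9e-10). The lines thus held opposite balances of de novo enzymes: DNMT3A to DNMT3B was 0.500 and 0.464 in control MOLM13, against 1.77 and 2.52 in control OCIAML5, per kilobase. DNMT1, SUZ12, EED and TET3 were not called, and the 95% interval for DNMT1 ran from -0.10 to 0.07. The TET3 difference passed in 1 fit, without replicate 1 of the OCIAML5 controls (0.14; adjusted p = 0.0469).

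The controls of OCIAML5 also differed between the experiments, so levels across experiments are not read as effects of a knockdown. With all 8 OCIAML5 libraries scaled together, 5 of the 10 genes differed, where 38.9% of all genes passed, 20% higher and 18.9% lower in the PU.1 experiment. Controls of the PU.1 experiment held more DNMT1, at 590 ± 16 CPM, against 453 ± 9.9 CPM in controls of the PSPC1 experiment (SD, n = 2 each; log2 difference 0.38 ± 0.043, adjusted p = 3.5e-10). DNMT3B (0.63 ± 0.13; adjusted p = 8.8e-05) and UHRF1 (0.21 ± 0.053; adjusted p = 0.00144) were also higher in the PU.1 experiment. SUZ12 (-0.34 ± 0.052; adjusted p = 6.7e-07) and EZH2 (-0.27 ± 0.056; adjusted p = 8.3e-05) were lower. The DNMT3B difference was 0.41 without replicate 2 of the PSPC1 experiment's controls, and that of TET3 passed without their replicate 1 (0.21; adjusted p = 0.0032). The experiment and any difference in handling between the experiments cannot be told apart here.

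Partners of the enzymes were read from lists, and their counts stand beside the shares of all genes given above. Of 15 measured partners and readers of DNA methylation, 9 fell and 5 rose in PSPC1-knockdown MOLM13, 8 fell and 3 rose in PSPC1-knockdown OCIAML5, and 9 fell and 4 rose with PU.1 knockdown. The list medians were -0.48, -0.35 and -0.24. The 5 that rose in MOLM13 became 3 without knockdown replicate 1 or without control replicate 2, and the 3 that rose in PSPC1-knockdown OCIAML5 became 6 when scaled by library size alone. HELLS, a chromatin remodeler needed for methylation, and its partner CDCA7 fell in all 3. HELLS stood at 11.1 and 11.5 CPM in PSPC1-knockdown MOLM13, against 60.8 and 65.6 CPM in control MOLM13 (-2.48), and changed by -1.81 with PSPC1 knockdown and -1.01 with PU.1 knockdown in OCIAML5. CDCA7 changed by -1.63, -1.93 and -0.76, and its paralog CDCA7L by -1.78, -1.69 and -1.03 in the same order. TRIM28, a corepressor that works with DNA and histone methylation, changed by -1.22, -1.22 and -0.65. Some readers rose instead: ZBTB38 and ZBTB4, zinc finger proteins that bind methylated DNA, rose in all 3 by 0.63 to 0.93, and were chosen after their values were seen. ZBTB38 was low in MOLM13, at 2.36 ± 0.77 CPM with PSPC1 knockdown, against 1.27 ± 0.53 CPM in controls (SD, n = 2 each). Its rise there was 0.835 ± 0.332 (adjusted p = 0.0288) and did not pass the threshold of 0.01. DNMT3L, the inactive relative of the de novo enzymes, did not pass the filter on low counts.

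**Figure D4:**
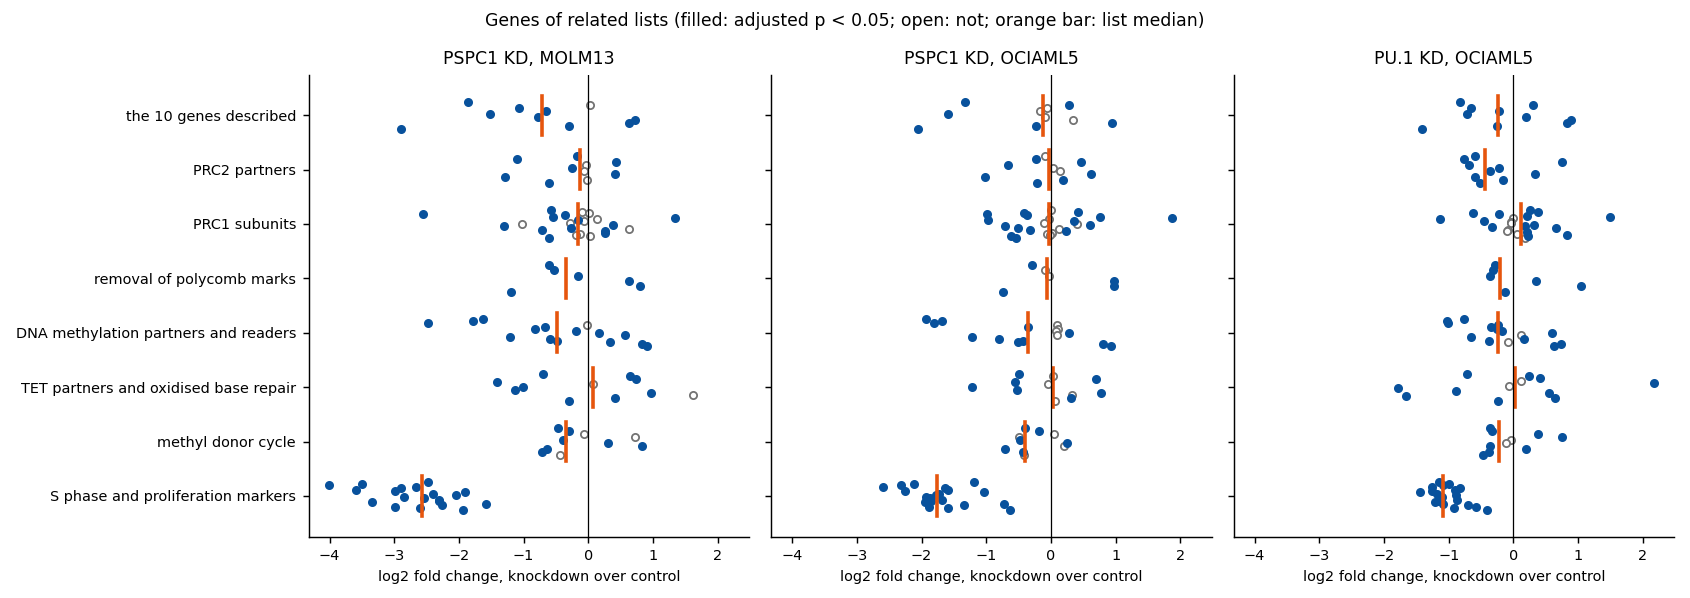
Log2 fold change, knockdown over control (horizontal axes), of the 10 genes and of the tested genes of 7 related lists in PSPC1-knockdown MOLM13, PSPC1-knockdown OCIAML5 and PU.1-knockdown OCIAML5; filled points passed an adjusted p of 0.05 and orange bars are list medians. The 20 S phase and proliferation markers all lie left of 0, with medians of -2.58, -1.76 and -1.09, while the polycomb and TET lists spread to both sides.

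Other PRC2 genes moved unevenly. Their list holds accessory subunits and also EZH1, described above, and the histone-binding core subunits RBBP4 and RBBP7. Of 10 measured, 5 fell and 2 rose in PSPC1-knockdown MOLM13, 4 fell and 3 rose in PSPC1-knockdown OCIAML5, and 8 fell and 2 rose with PU.1 knockdown, with medians of -0.13, -0.03 and -0.44. The 2 that rose became 1 without MOLM13 knockdown replicate 1, and 1 without PU.1-knockdown replicate 1. PHF19, a Polycomb-like protein that helps PRC2 bind CpG islands, fell in all 3, to 18.9 and 18.6 CPM in PSPC1-knockdown MOLM13, against 45.4 and 46.4 CPM in control MOLM13 (-1.29), and by 1.02 and 0.60 on the log2 scale in the OCIAML5 knockdowns. EPOP, which joins PRC2 to elongin, changed by -1.11, -0.24 and -0.76. RBBP7, a histone-binding core subunit, changed by -0.61, -0.21 and -0.51. JARID2, the cofactor of the other PRC2 form, fell in OCIAML5 with PSPC1 knockdown (-0.67) and with PU.1 knockdown (-0.68), and stood at -0.03 in PSPC1-knockdown MOLM13 (adjusted p = 0.63).

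Subunits of Polycomb repressive complex 1, which ubiquitinates histone H2A and reads the PRC2 mark, gave no common direction. In PSPC1-knockdown MOLM13, 9 of 23 fell and 4 rose, in PSPC1-knockdown OCIAML5, 9 of 23 fell and 6 rose, with BCOR at 0 in both groups, and with PU.1 knockdown 5 of 22 fell and 10 rose. The 5 became 3 when scaled by library size alone. CBX2, a chromobox protein that binds the mark, fell in all 3, to 6.33 and 3.63 CPM in PSPC1-knockdown MOLM13, against 34.4 and 23.2 CPM in control MOLM13 (-2.56), and by 0.98 and 0.62 in the OCIAML5 knockdowns. Another chromobox protein, CBX7, chosen after its values were seen, rose in all 3, by 1.34, 1.86 and 1.49, and no control library exceeded 3.99 CPM. CBX6 fell in PSPC1-knockdown MOLM13 (-0.55) and rose in PSPC1-knockdown OCIAML5 (0.76). KDM2B, which brings the complex to CpG islands, fell in all 3, by 0.15 in PSPC1-knockdown MOLM13, by 0.97 in PSPC1-knockdown OCIAML5 and by 1.14 with PU.1 knockdown. PCGF5, a subunit of variant complexes, fell with PSPC1 knockdown in MOLM13 (-1.31) and in OCIAML5 (-0.71), and rose with PU.1 knockdown (0.17). PCGF3 rose in all 3 (0.38, 0.61 and 0.32), and RYBP, another variant subunit, rose with PU.1 knockdown (0.82).

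Of 6 measured genes for the removal of polycomb marks, 2 rose in each knockdown, and 4, 2 and 4 fell. KDM6B and KDM6A, which demethylate lysine 27 of histone H3, rose in all 3 knockdowns, while the deubiquitinase USP16 and ASXL1, a cofactor of the deubiquitinase BAP1, fell in all 3. KDM6B stood at 146 and 154 CPM in PSPC1-knockdown MOLM13, against 85.2 and 86.6 CPM in control MOLM13 (0.80), and rose by 0.98 and 1.04 in the OCIAML5 knockdowns. KDM6A rose by 0.63, 0.98 and 0.35. USP16 changed by -1.20, -0.73 and -0.13. ASXL2 and BAP1 fell in MOLM13 (-0.53 and -0.16) and with PU.1 knockdown (-0.31 and -0.36), and stood at -0.09 and -0.03 in PSPC1-knockdown OCIAML5. ASXL1 was chosen after its values were seen.

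Partners of the TET enzymes and of the repair that follows oxidation stood near 0 in the middle, with list medians of 0.08, 0.03 and 0.03, and spread widely. Of those measured, 5 of 11 fell and 4 rose in PSPC1-knockdown MOLM13, 4 of 11 fell and 3 rose in PSPC1-knockdown OCIAML5, and 5 of 12 fell and 5 rose with PU.1 knockdown. OGT, a glycosyltransferase that binds the TET proteins, rose in all 3, to 849 and 842 CPM in PSPC1-knockdown MOLM13, against 437 and 431 CPM in control MOLM13 (0.96), and by 0.77 and 0.56 in the OCIAML5 knockdowns. IDH2, the mitochondrial enzyme that makes alpha-ketoglutarate, a co-substrate of the TET enzymes, fell in all 3. IDH2 stood at 61.7 and 62.8 CPM in PU.1-knockdown OCIAML5, against 219 and 209 CPM in its controls (-1.78), and changed by -1.004 and -1.23 with PSPC1 knockdown in MOLM13 and OCIAML5. Its cytosolic relative IDH1, chosen after its values were seen, was not called in any knockdown, with log2 fold changes from -0.07 to 0.07. CXXC5, which binds unmethylated CpG, changed by -0.71, -0.49 and -0.72.

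The methyl donor cycle, which supplies S-adenosylmethionine, leaned downward, with 5 of 10 genes lower in each knockdown and 2, 1 and 3 higher. The list medians were -0.34, -0.41 and -0.22, and the 1 gene higher in PSPC1-knockdown OCIAML5 became 2 when scaled by library size alone. AHCY, which clears the inhibitory product S-adenosylhomocysteine, changed by -0.46, -0.40 and -0.36, and its relative AHCYL1 by -0.29, -0.18 and -0.33. MTRR, which reactivates methionine synthase, changed by -0.72, -0.44 and -0.38. MTR, methionine synthase itself, fell with PSPC1 knockdown in MOLM13 (-0.64) and in OCIAML5 (-0.71) and rose with PU.1 knockdown (0.19). MAT2A, which makes S-adenosylmethionine, fell with PSPC1 knockdown (-0.39 in MOLM13 and -0.48 in OCIAML5) and stood at -0.03 with PU.1 knockdown (adjusted p = 0.482).

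Germline genes that DNA methylation is known to silence lay mostly below the filter on low counts. Of 15 such genes, 2, 2 and 3 passed the filter on low counts in the 3 knockdowns. With PSPC1 knockdown 0 of the 2 passed in either line, with edgeR or DESeq2, and 0 had an unadjusted p under 0.05. Without control replicate 1 in MOLM13, and without knockdown replicate 2 in OCIAML5, 1 passed. SYCP3, of the meiotic synaptonemal complex, was the exception with PU.1 knockdown: it rose to 16.0 and 15.0 CPM, against 3.29 and 2.68 CPM in controls (2.38 ± 0.15; adjusted p = 2.8e-23). With PSPC1 knockdown SYCP3 stood at 0.989 and 1.17 CPM in MOLM13, against 0.868 and 0.299 CPM in controls, and at 2.88 and 2.00 CPM in OCIAML5, against 1.58 and 2.21 CPM in controls. No methylation of DNA or histones was measured in these libraries.

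The gene most like each member over the 12 libraries, by Pearson correlation of log2 CPM among 10684 or 10685 genes with a mean of at least 5 CPM, is given as a description. The 12 libraries share lines and experiments, so the points are not independent. DNMT1 was most like CHAF1A, a subunit of the histone chaperone CAF-1 (r = 0.997), UHRF1 most like MCM4, a helicase subunit (r = 0.996), and EZH2 most like NCAPD2, a condensin subunit (r = 0.997). EED was most like FIGNL1 (r = 0.949) and SUZ12 most like FOXO3, a forkhead transcription factor (r = 0.966). DNMT3A was most like FMO5 (r = 0.991), TET2 most like MAP3K12, a kinase (r = 0.987), TET1 most like the cathepsin gene CTSL (r = 0.981), DNMT3B most like TXNDC12 (r = 0.967) and TET3 most like TMEM222 (r = 0.950). Within the set, DNMT1 correlated with EZH2 at r = 0.955 and with UHRF1 at r = 0.951, whereas TET2 correlated with DNMT3B at r = -0.785 and with DNMT3A at r = 0.861.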

How the data were processed

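RNA was sequenced from 12 libraries in 6 groups of 2, made with a stranded mRNA kit, per the labels' protocols. The authors deposited raw counts per gene, 1 table of 8 libraries for PSPC1 and 1 of 4 for PU.1. The submitters' processing notes name Trim Galore 0.6.7, STAR 2.7.10a, HTSeq 2.0.2, DESeq2 1.36.0 and GRCh38, with no roles. The sources used here give no annotation release and no strand setting.

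The deposited counts were tested in R 4.3.3 with edgeR 4.0.16 (filterByExpr, TMM scaling, quasi-likelihood F test, Benjamini-Hochberg adjustment over all genes tested, threshold 0.05). The PSPC1 table was fitted as 4 groups (16457 genes and 4 residual degrees of freedom) and the PU.1 table as 2 groups (16861 genes and 2 degrees), and the 8 OCIAML5 libraries jointly for effects and controls across experiments (17159 genes). The biological coefficient of variation was 4.73%, 4.08% and 4.5%. The variance between the replicates of a group was 2.6 to 4.97 times that of counting alone, so no library was a copy of the other in its group. Alternatives were DESeq2 1.42.0, other scalings and filters, a replicate block, a threshold of 0.01 and leaving out each library.

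The 10 genes and all lists were chosen with earlier results of these data known. The named partners were the 3 genes with the smallest adjusted p among those called in each list and knockdown. Of the 60648 symbols, 91.1% were found in GENCODE 29, which gave positions and lengths. No exon of the 10 genes shared bases with an exon on the opposite strand. Figures were drawn with matplotlib 3.10.9.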

Additional observations from a re-analysis of the deposited data

Results flagged for a closer look

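The effect of PSPC1 knockdown was tested for a difference between MOLM13 and OCIAML5, and 6 of the 10 genes passed an adjusted p of 0.05, all lower in MOLM13, where 30.5% of all genes passed and 18% were lower. The log2 fold change in MOLM13 minus that in OCIAML5 was -0.528 for DNMT1, -1.025 for DNMT3B, -0.831 for UHRF1, -0.308 for TET2, -0.489 for EED and -0.696 for SUZ12. For DNMT1 and UHRF1 both lines fell and MOLM13 fell further. For DNMT3B, EED and SUZ12 the fall passed in MOLM13 alone, and TET2 rose in both lines and less in MOLM13. The SUZ12 value is uncertain, as its near-copy SUZ12P1, which may share reads with it, differed by 0.617. With 1 library left out the calls for EED and TET2 could be lost, with adjusted p up to 0.118 for EED and 0.104 for TET2. Beside them, the S phase and proliferation markers differed the same way for 18 of 20 genes, and their part was not tested. Line and medium cannot be told apart here.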

How the results depend on the processing

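No total of called genes among the 10, over both directions, moved by more than 1.5 times under the alternatives run. By direction, the 2 that rose in PSPC1-knockdown MOLM13 became 1 without knockdown replicate 2, and the 1 lower between the PU.1 and PSPC1 effects (DNMT3B) became 0 without replicate 2 of the PSPC1 experiment's controls. Of 490 values of single genes under other settings, 469 kept their direction and side of the threshold, 6 lost a call, 1 gained a call and 14 turned direction; of 360 with 1 library left out the numbers were 318, 12, 4 and 26. Every value that turned was uncalled in the reported comparison and under the alternative. With DESeq2 and with RLE size factors, TET3 turned to -0.001 and -0.001 between MOLM13 and OCIAML5 controls and to 0.009 and 0.010 between the PU.1 and PSPC1 effects, and TET1 turned to -0.010 and -0.010 between the OCIAML5 controls. With library size alone DNMT3B was 0.029 in PSPC1-knockdown OCIAML5, TET3 was -0.046 between lines, and TET3 and EED were 0.051 and 0.023 between the effects. With no low-count filter SUZ12 was 0.003 between lines, and TET2 and EED were 0.038 and 0.058 between the OCIAML5 controls; the 1 CPM filter gave TET1 -0.004 there. The cause was not tested.

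With 1 library left out, the log2 fold change ran from -0.044 to 0.082 for DNMT3A in PSPC1-knockdown MOLM13 and from -0.284 to 0.226 for DNMT3B in PSPC1-knockdown OCIAML5. The line difference of the PSPC1 effect ran from -0.036 to 0.177 for EZH2 and from -0.205 to 0.037 for TET3. Between MOLM13 and OCIAML5 controls the ranges were -0.105 to 0.137 for TET3, -0.026 to 0.031 for SUZ12 and -0.045 to 0.016 for DNMT1. Between the PU.1 and PSPC1 effects they were -0.109 to 0.114 for TET3 and -0.104 to 0.051 for EED. Between the OCIAML5 controls they were -0.079 to 0.023 for TET2, -0.058 to 0.044 for EED, -0.239 to 0.197 for TET1 and -0.018 to 0.207 for TET3. The TET3 line difference passed without OCIAML5 control replicate 1 (adjusted p = 0.0359), and the DNMT3A line difference passed without MOLM13 knockdown replicate 2 (adjusted p = 0.0443) and with library size alone (adjusted p = 0.0331).

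Same-numbered libraries did not deviate together (correlations over genes of 0.0082, 0.00566 and 0.00494). No pairing by number was seen, which cannot exclude that same-numbered libraries were prepared together. With a replicate block 9, 6 and 10 of the 10 genes passed in the 3 knockdowns. It gave 6 in the line difference and 5 between the effects, and all these numbers were the same without it. The comparisons of controls were not run with the block. Scaling by library size alone moved the median of all genes in PU.1 knockdown to 0.171 and the share of higher genes among those called to 62.2%, against 48.9% with TMM. Depth limits TET1 most.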

Other observations

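BCOR, a subunit of a variant Polycomb repressive complex 1 that KDM2B brings to CpG islands, was nearly without counts in OCIAML5. It had 113.7 and 113.8 CPM in PSPC1-knockdown MOLM13 and 169.4 and 169.5 CPM in control MOLM13, a fall (log2 fold change -0.57 ± 0.062; adjusted p = 3.2e-11). All 6 of the other OCIAML5 libraries held 0 counts of BCOR, and the controls of the PU.1 experiment held 1 and 3 counts. Against a floor of 3 counts per library, control MOLM13 was at least 960-fold higher than control OCIAML5 of the PSPC1 experiment. Its paralog BCORL1 was read in both lines, and rose in OCIAML5 with PSPC1 knockdown (0.41) and with PU.1 knockdown (0.25). BCOR and BCORL1 were chosen after their values were seen.

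The demethylase KDM6A separated the OCIAML5 controls of the experiments. Scaled together, it stood at 36.4 ± 2.4 CPM in controls of the PU.1 experiment, against 7.05 ± 0.73 CPM in controls of the PSPC1 experiment (SD, n = 2 each; log2 difference 2.36 ± 0.11, adjusted p = 4.4e-22). SALL4, a factor that binds oxidised methylcytosine, differed the other way, at 0.796 ± 0.16 CPM against 7.84 ± 0.39 CPM (-3.30 ± 0.26; adjusted p = 2.2e-14). FLT3, a receptor of leukemia cells, stood at 67.4 ± 1.6 CPM against 248.6 ± 8.4 CPM (-1.88 ± 0.056; adjusted p = 9.8e-30). SALL4 and FLT3 were picked with their values known, and what separates these controls was not tested.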
